A study of Mus musculus with 6 samples.

Results

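The transcripts described here are the 44 newly assembled long noncoding RNAs (lncRNAs) that lie over Tshz2 and Gm26883 on mouse chromosome 2, out of 18573 in the deposited table. They were taken as all transcripts whose locus falls between 169.6 and 170.1 Mb of chromosome 2 (mm10). Their levels in spermatogonial stem cells (SSCs) of the testis and in female germline stem cells (FGSCs) of the ovary led to the choice of this stretch, so that the differences between the cell types are given as a description and without a test. SSCs renew themselves in the seminiferous tubules and give rise to sperm. FGSCs are germ cells with stem cell properties that were sorted from the ovary.

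Both cell types came from Ddx4-Cre; mT/mG mice, in which Cre under the germ cell promoter Ddx4 switches a membrane red fluorescent protein to a green one, and green cells were sorted and then selected by binding to laminin. The green mark stays on in every descendant of a cell that once made Cre, so that it labels the germline and not stem cells alone. SSCs were pooled from the testes and FGSCs from the ovaries of many young mice, untreated, and each cell type was sequenced as 3 libraries. The sample labels give the strain as C57BL/6 and the age of the donors as 3 to 5 days (SSCs) or 6 days (FGSCs), whereas the methods of the study name the transgenic cross and give the ages the other way round. Age and sex of the donors therefore change together, whichever source is right. The table holds 1 value per transcript and cell type, in FPKM, the number of fragments divided by transcript length and by all mapped fragments, with no value per library. For that reason no standard deviation could be computed and no test over libraries was made here, the number of reads behind each value is unknown, and no spread between replicates can be set beside the differences below.

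Tshz2 encodes a member of the teashirt family, zinc finger proteins with a homeodomain that act in the nucleus as regulators of transcription and take part in the patterning of tissues, a role first described for teashirt in Drosophila. A gene can be read on both DNA strands, and an RNA made from the strand opposite to a known gene is called antisense to it. Such RNAs are often low in level and lie over genes of development. In an assembly made from short reads, a long gene with wide introns can also be covered by many separate short models.

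In GENCODE M21, an annotation of the same assembly, Tshz2 runs on the plus strand from 169633013 to 170071816 (438804 bp), and this is also the locus given for every one of the 44 transcripts. Gm26883, annotated as a long intergenic noncoding RNA gene of 254858 bp, runs on the minus strand from 169633646 to 169888503, inside Tshz2. A630075F10Rik is a second lncRNA gene on the minus strand, from 170061240 to 170070671, near the 3′ end of Tshz2 and 172736 bp beyond Gm26883. AY702102, on the minus strand from 169962015 to 169963187, lies between both in an intron of Tshz2. The nearest coding gene downstream, Zfp217, a zinc finger gene on the minus strand, runs from 170108643 to 170148103.

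**Figure D1:**
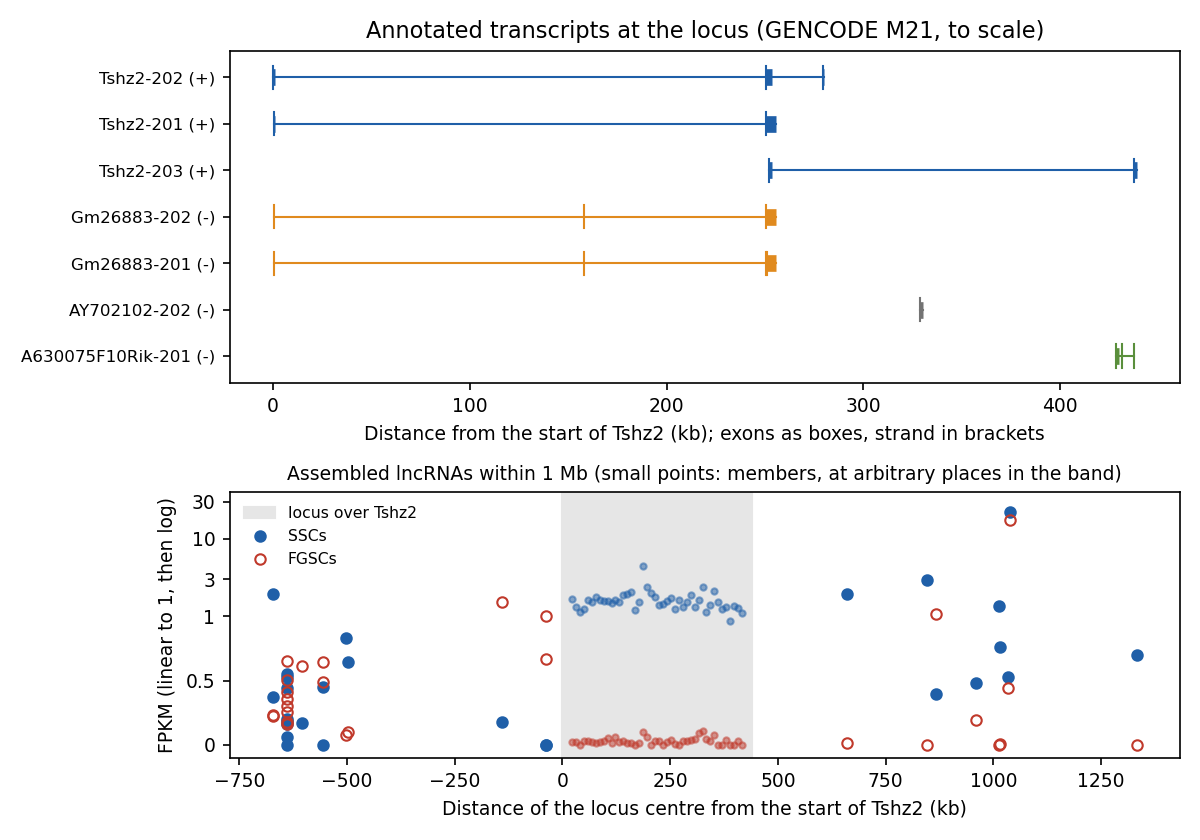
Upper panel, annotated transcripts of Tshz2, Gm26883, AY702102 and A630075F10Rik by distance from the start of Tshz2 in kb, with exons as boxes and the strand in brackets. Lower panel, FPKM in SSCs (blue) and FGSCs (red) of the assembled lncRNAs within 1 Mb on either side, on an axis that is linear to 1 FPKM and logarithmic above. The small points in the grey band are the 44 transcripts, drawn at arbitrary places. All 44 blue points lie above all 44 red ones, at a locus chosen for this contrast.

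Each of the 44 carried the class code x, which the assembly comparison gives to a transcript that overlaps exons of a known transcript on the opposite strand. The known transcript was the same for all 44, the longer form of Gm26883, in version 2 of its model, whereas GENCODE M21 holds version 7. No transcript in the whole table was named for Tshz2, A630075F10Rik or AY702102, and all 44 transcripts that named Gm26883 were at this locus. Class x made up 8.35% of the whole table. Since Gm26883 is on the minus strand, the code places the 44 on the plus strand, which is the strand of Tshz2. The numbering of the genes points to the same strand. Of the other transcripts of chromosome 2 whose strand follows from a named gene, the 80 on the plus strand have gene numbers up to 32062 and the 105 on the minus strand have numbers from 32135 on, and the 44 have numbers 31838 to 31900. Each transcript had a gene identifier of its own, so that the assembly joined no 2 of them into a gene. The transcript names run from TCONS_00083526 to TCONS_00083588, and 19 of the 63 numbers in this span are not in the table.

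Nearly all of the exon sequence of Gm26883 lies in exons of Tshz2. Of the 5115 exonic bases of the longer form of Gm26883, 5076 (99.2%) lie in exons of Tshz2 on the other strand. Its largest exon, of 4992 bp from 169883512 to 169888503, shares 4978 bp with the main coding exon of Tshz2 (169883526 to 169888504). Its second exon, of 25 bp, lies in the first intron of Tshz2. If the 44 did not overlap each other, on average at most 116 of these 5115 bases would fall to each. The exons of the 44 are not in the table, and the place of each within the locus is therefore unknown. As they share a strand and a locus with Tshz2, fragments of Tshz2 RNA and of these transcripts cannot be told apart from the table, and how the counting divided them is not given in the sources used here. The level of Tshz2 mRNA was not analysed here, and its part in the values was not tested.

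The sequences at the exon borders are shown because the class code rests on the strand of Gm26883, and spliced RNA carries its strand in the bases GT at the start and AG at the end of an intron. They are from the RefSeq genome GRCm38.p6, 5′ to 3′ on the strand of the gene named, with exon bases in capitals. The first is from chr2:169883496-169883555 (plus strand), the second from chr2:169883492-169883531 (minus), the third from chr2:169790943-169791007 (minus) and the fourth from chr2:169633734-169633763 (minus).
Tshz2, intron 1 into exon 2: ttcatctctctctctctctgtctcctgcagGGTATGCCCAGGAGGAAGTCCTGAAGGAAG
Gm26883, exon 1 into intron 1: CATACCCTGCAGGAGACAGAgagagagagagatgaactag
Gm26883, exon 2 with both introns: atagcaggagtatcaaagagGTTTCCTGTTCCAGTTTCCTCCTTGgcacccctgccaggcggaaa
Gm26883, intron 2 into exon 3: tgcctgctgtttcctccttgGCATCGCTCT

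All annotated introns of Tshz2 start with GT and end with AG. In the longer form of Gm26883 neither intron does. Its first intron, of 92524 bp, starts with GA and ends with AG, and its second, of 157219 bp, starts with GC and ends with TG. The shorter form of Gm26883 has these same introns and a further one, of 207 bp, which starts with GT and ends with GG. Both introns of A630075F10Rik have the pair GT and AG. For comparison, 684 of 724 introns (94.5%) of lincRNA transcripts on chromosome 2 in GENCODE M21 have that pair, as do 98.4% of 18451 introns of protein-coding transcripts. At the second intron of the longer form, the last 12 bases of exon 2 and the last 12 bases of the intron before exon 3 are the same, GTTTCCTCCTTG, and at the first intron the end of the exon and the end of the intron share 0 bases. At the second intron the match runs on past the border, as the intron and exon 3 both start with GCA. At the first intron only the first base after each border, G, is shared. The letters describe the reference and the annotation, and not the reads of the libraries.

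The stretch before the start of Tshz2 is shown because all 44 transcripts lie on its strand. It comprises the 250 bases upstream of the RefSeq start of Tshz2 (169632509, which is 504 bp before the GENCODE start), chr2:169632259-169632508 on the plus strand, with motif matches in capitals.
Tshz2 promoter: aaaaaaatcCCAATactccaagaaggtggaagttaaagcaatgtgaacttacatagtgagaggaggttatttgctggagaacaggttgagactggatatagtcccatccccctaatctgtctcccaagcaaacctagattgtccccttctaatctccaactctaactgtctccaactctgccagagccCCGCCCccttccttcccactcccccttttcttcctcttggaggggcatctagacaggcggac

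Promoter motifs were searched on both strands. The GC box (GGGCGG, or CCGCCC on the other strand) had 1 match, and so did the CCAAT box (CCAAT or ATTGG), while the TATA box (TATAAA or TTTATA) had 0. Over 27025 mouse genes in the RefSeq promoter set, windows of the same length hold a GC box in 32.9%, a CCAAT box in 34.5% and a TATA box in 13.0%. The stretch has 2 CpG dinucleotides, and 29.6% of the windows have as few or fewer. Its GC content was 48.8%, against a median of 52.0%. Gm26883 and A630075F10Rik have no entry in the promoter set.

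In SSCs the 44 transcripts lay between 0.965 and 4.42 FPKM, with a median of 1.54. In FGSCs they lay between 0 and 0.111 FPKM, with a median of 0.0270. The lowest of the 44 in SSCs was 8.67 times the highest of the 44 in FGSCs. The locus was chosen for this contrast, and the 44 are not replicates of a cell type, so nothing is read from this gap. All 44 were higher in SSCs, in a table in which 36.0% of the transcripts were. In SSCs 43 of the 44 reached 1 FPKM and 37 were between 1 and 2 FPKM, and in FGSCs 37 were under 0.05 FPKM. Summed over the 44, the FPKM was 71.2 in SSCs and 1.30 in FGSCs, a ratio of 54.6. In bulk RNA a difference in the share of cells that make an RNA and a difference in its amount per cell cannot be told apart.

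**Figure D2:**
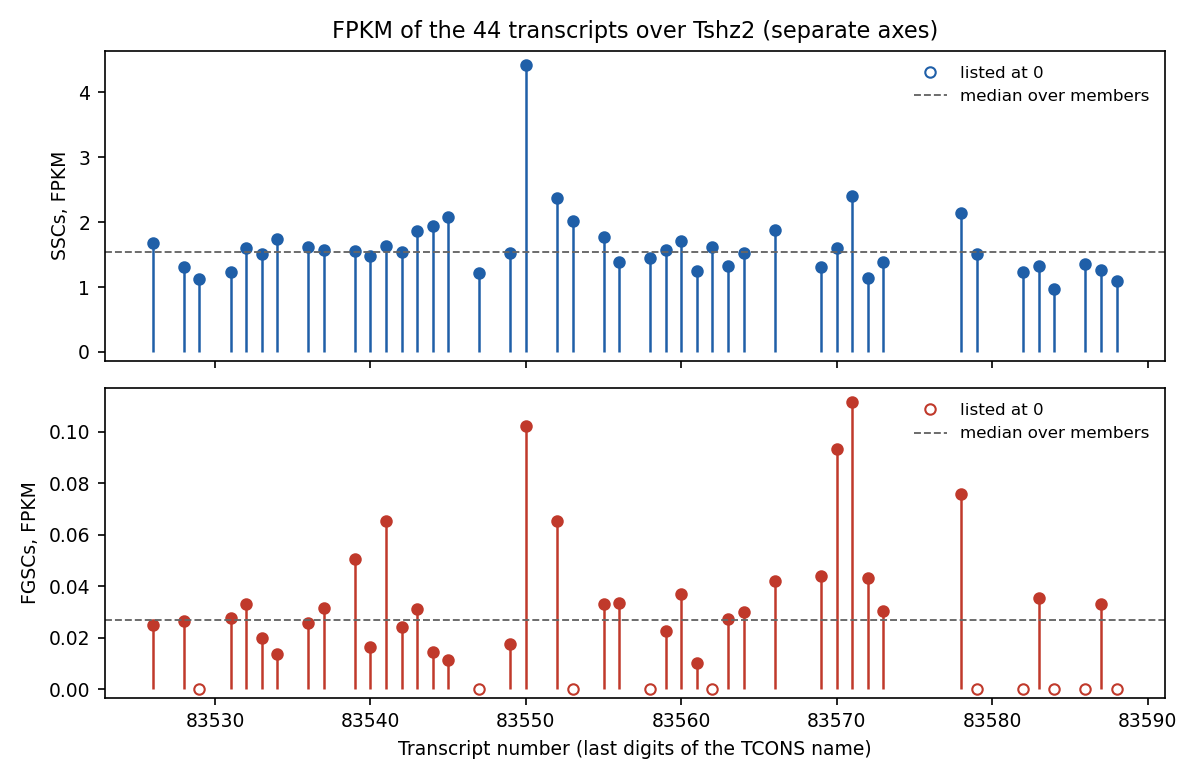
FPKM of each of the 44 transcripts in SSCs (upper panel) and in FGSCs (lower panel), by the number in the transcript name. Dashed lines are medians over the 44 (1.54 and 0.0270 FPKM), and open circles are transcripts listed at 0. The scales differ: the highest point is at 4.42 FPKM in SSCs and at 0.111 FPKM in FGSCs.

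On the scale of log2(FPKM + 0.5), the difference between SSCs and FGSCs was 1.55 to 3.03 over the 44, with a median of 1.95. All 44 passed a difference of 1 (higher in SSCs), and 23.2% of the 12019 transcripts with at least 0.5 FPKM in either cell type did. A difference of 2 was passed by 16 of the 44 and by 5.87% of the 12019. The median difference over the 12019 was -0.42, that is, towards FGSCs, and 31.0% of them passed a difference of 1 in that direction, against none of the 44. Because this contrast led to the choice of the locus, nothing is read from these shares. The FGSC values are small beside the pseudocount of 0.5, so that on this scale the differences among the 44 mostly follow their levels in SSCs. Without a pseudocount, and over the 34 transcripts above 0 in FGSCs, the SSC value was 17.2 to 181 times the FGSC value, with a median of 48.2 times.

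The most abundant transcript was TCONS_00083550, at 4.42 FPKM in SSCs against 0.102 in FGSCs. It stood apart in SSCs, at 1.84 times the next and 2.87 times the median. Next came TCONS_00083571 at 2.41 FPKM against 0.111, the latter being the highest of the 44 in FGSCs. TCONS_00083552 had 2.37 FPKM in SSCs against 0.0653 in FGSCs. Apart from TCONS_00083550, the SSC values lay close together, the second highest being 2.49 times the lowest.

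TCONS_00083578 had 2.14 FPKM in SSCs against 0.0758 in FGSCs. TCONS_00083545 had 2.08 FPKM against 0.0115, a ratio of 181 and the highest among those above 0 in FGSCs. TCONS_00083553 had 2.02 FPKM in SSCs and was listed at 0 in FGSCs. These 6 were the only ones of the 44 above 2 FPKM in SSCs. The next 4 in SSCs were TCONS_00083544 with 1.94 FPKM, TCONS_00083566 with 1.89, TCONS_00083543 with 1.86 and TCONS_00083555 with 1.76. Their FGSC values were 0.0145, 0.0421, 0.0313 and 0.0331 FPKM, all within the range of the remaining transcripts.

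The highest values in FGSCs were those of TCONS_00083571 and TCONS_00083550, given above, and of TCONS_00083570, with 0.0932 FPKM in FGSCs and 1.60 FPKM in SSCs. TCONS_00083570 had the smallest ratio of the 34, 17.2. TCONS_00083536, whose RNA the study also amplified and cloned, had 1.61 FPKM in SSCs against 0.0256 in FGSCs and was 15th of the 44 in SSCs, close to the median in both cell types. The study reports that the clone matched its sequencing data, and that quantitative RT-PCR of its selected lncRNAs followed their FPKM. The lowest in SSCs was TCONS_00083584 with 0.965 FPKM, and it was listed at 0 in FGSCs. The 27 transcripts not named here lay between 1.09 and 1.75 FPKM in SSCs (median 1.38) and between 0 and 0.0652 FPKM in FGSCs (median 0.0274), and 4 of them were listed at 0 there.

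No few transcripts carried the sum. The highest 1, 5 and 10 of the 44 held 6.21%, 18.8% and 32.1% of the summed SSC FPKM, where equal levels would give 2.27%, 11.4% and 22.7%. By Shannon's measure the 44 counted as 42.1 equally abundant transcripts. In FGSCs the top 5 held 34.3% of the sum. Among 23 other loci with at least 10 transcripts and a summed SSC FPKM of at least 5, the top 5 held at least 32.0% of it, but these loci have fewer transcripts, which raises that share. The FPKM is divided by transcript length, and a sum over separate transcripts is not the level of a single RNA.

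**Figure D3:**
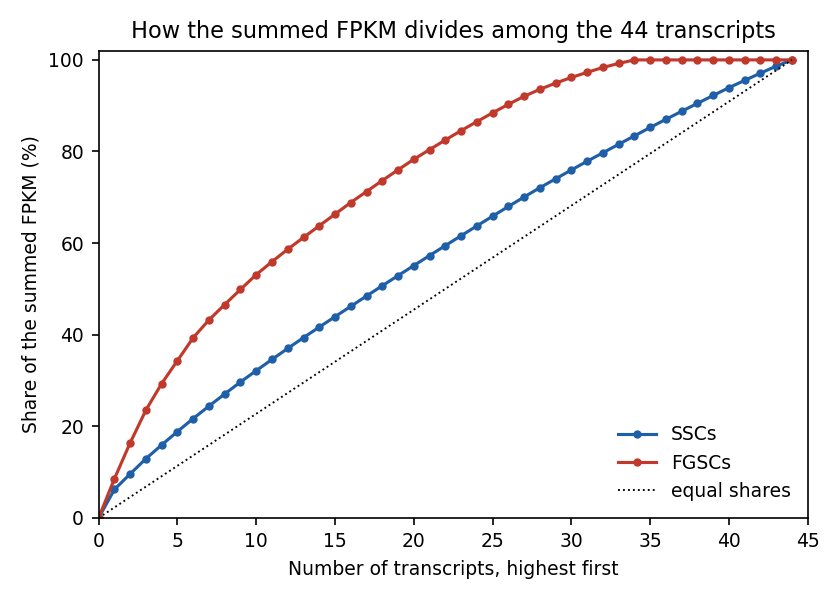
Share of the summed FPKM (vertical axis, %) held by the highest 1, 2, 3 and so on of the 44 transcripts (horizontal axis) in SSCs (blue) and FGSCs (red). The dotted line stands for equal levels. The SSC curve runs close to it, with 18.8% in the top 5, and the FGSC curve reaches the whole sum at 34 transcripts.

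Of the 44, 10 (22.7%) were listed at 0 in FGSCs, and none was in SSCs. Over all transcripts 7.16% were listed at 0 in FGSCs, and of the 2615 transcripts with at least the SSC level of the lowest of the 44, 17.7% were. At the loci nearest in ratio, described below, 15 of 30 were at Pcdh15, 8 of 14 at C430002E04Rik and 2 of 11 at Gm26936 and Gm26979. A share of this size is therefore not particular to the locus. The 10 had 0.965 to 2.02 FPKM in SSCs (median 1.29), and the other 34 had 1.14 to 4.42 FPKM (median 1.56), so that the ranges overlap. The 5 highest in SSCs among the 10 were TCONS_00083553 with 2.02 FPKM, TCONS_00083562 with 1.61, TCONS_00083579 with 1.51, TCONS_00083558 with 1.44 and TCONS_00083586 with 1.35. The other 34 held 81.0% of the summed SSC FPKM. A listed 0 does not show that the RNA is absent, since the lowest value above 0 among the 44 in FGSCs was 0.0101 FPKM. The study reports the reads per library, but the number of reads behind a single value is unknown.

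Across the 44 transcripts the levels in SSCs and FGSCs rose together, with correlations of 0.603 (Pearson) and 0.398 (Spearman). Without TCONS_00083550 these were 0.504 and 0.355 over 43 transcripts. They are given as a description, since transcripts of a locus share libraries and perhaps fragments and are not independent.

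Gene numbers on the plus strand of chromosome 2 followed the start positions in all of 592 neighbouring pairs (100%), the 44 left out. Whether numbers follow position within the locus as well could not be checked, because its transcripts share 1 pair of coordinates. In order of number, the first 15 transcripts had a median of 1.56 FPKM in SSCs and 1 of them was listed at 0 in FGSCs. The next 14 had a median of 1.59 FPKM with 4 at 0, and the last 15 had a median of 1.35 FPKM with 5 at 0. The ranges of the 3 groups in SSCs overlap (1.12 to 1.94, 1.21 to 4.42 and 0.965 to 2.41 FPKM). Over the 44, SSC level and number had a Spearman correlation of -0.244, which is again a description.

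Set against the whole table, the 44 were high but not extreme in SSCs and among the lowest in FGSCs. The lowest of them stood above 85.9% of all transcripts in SSCs, the median member above 92.3% and TCONS_00083550 above 97.8%. In FGSCs even the highest stood above no more than 16.9%. As a locus, the stretch ranked first of 15007 in number of transcripts, 15th in summed SSC FPKM and 1715th in summed FGSC FPKM. The 14 loci with a higher SSC sum held at most 3 transcripts each.

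Antisense transcripts elsewhere lay on both sides. Without the 44, class x held 1507 transcripts, whose median FPKM was 0.453 in SSCs and 0.544 in FGSCs. Of the 1123 with at least 0.5 FPKM in either cell type, 215 (19.1%) were past a difference of 1 towards SSCs and 295 (26.3%) towards FGSCs. Of these 1507, 5.11% were listed at 0 in FGSCs. The 44 made up 2.84% of the class and 17.0% of its 259 transcripts past a difference of 1 towards SSCs. On chromosome 2 they made up 3.25% of all transcripts and 44 of the 206 past that difference (21.4%), and without them 162 of 808 were past it. The locus was chosen for this contrast, so nothing is read from its shares of the class or of the chromosome.

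In all, 49 loci held at least 10 transcripts, and 9 of them had a log2 ratio of sums (with 0.5 added) above 1 towards SSCs and 26 towards FGSCs. The ratio over Tshz2 was 5.31 on that scale. The 3 nearest to it were the loci of Pcdh15, C430002E04Rik and Gm26936 with Gm26979, compared over 1 value per cell type. At Pcdh15, the gene of a protocadherin of the inner ear and retina, 30 transcripts of class j or x had a log2 ratio of 5.13, and the top 5 held 42.8% of their SSC sum. At C430002E04Rik, 14 transcripts summed to 9.83 FPKM in SSCs and 0.139 in FGSCs (log2 ratio 4.02). At Gm26936 and Gm26979, 11 transcripts summed to 8.32 and 0.423 FPKM (log2 ratio 3.26).

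Of the 49 loci, 6 held class x alone, and in all 6 each transcript had its own gene identifier, as it had in 20 of the 49 in all. Besides Gm26883 these were the loci of Gm26835, Lrrtm3, Cux1, Iqch and that of Gm26936 and Gm26979. Gm26835 had 12 transcripts that summed to 21.2 FPKM in SSCs against 2.74 in FGSCs. Cux1, the gene of a homeodomain transcription factor, had 11 transcripts that summed to 0.941 FPKM in SSCs against 11.2 in FGSCs, so that loci of this kind were found in both directions.

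**Figure D4:**
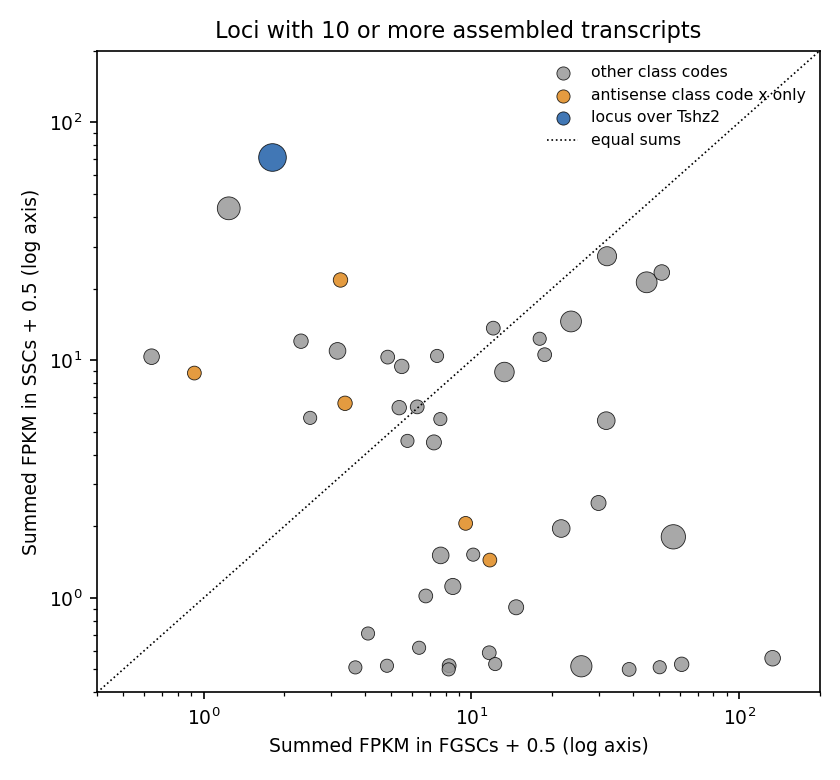
Summed FPKM in SSCs against FGSCs, each plus 0.5 and on log axes, for the 49 loci with at least 10 transcripts. The area of a circle follows the number of transcripts. The locus over Tshz2 (blue, 71.2 and 1.30 FPKM before the 0.5 was added) is the highest in SSCs, and the other 5 loci with class x alone (orange) lie on both sides of the dotted line of equal sums.

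Upstream of Tshz2 the nearest transcripts went the other way. These, 26760 bp away at a locus that crosses the border of the chosen stretch, were TCONS_00083519 and TCONS_00083520, the latter antisense to the predicted gene Gm11011. They had 0.670 and 1.01 FPKM in FGSCs and were both listed at 0 in SSCs. The next, TCONS_00083516, which shares a splice junction with the annotated gene Gm14249, had 0.179 FPKM in SSCs against 1.52 in FGSCs. Within 1 Mb upstream, 2 of 11 transcripts with at least 0.5 FPKM were past a difference of 1 towards SSCs and 3 towards FGSCs. Over all 12019 transcripts at that level the shares were 23.2% and 31.0%.

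Downstream the nearest was TCONS_00083594, an intergenic transcript 222210 bp away on the far side of Zfp217, at 1.96 FPKM in SSCs against 0.0180 in FGSCs. Within 1 Mb downstream, 5 of 8 such transcripts were past a difference of 1 towards SSCs and 0 towards FGSCs. The shares over the 12019 were again 23.2% and 31.0%. TCONS_00091509 had 2.91 FPKM in SSCs, TCONS_00083607 had 1.35 and TCONS_00083610 had 0.695, and these 3 were listed at 0 in FGSCs. Over all transcripts 7.16% were listed at 0 there. TCONS_00091518, the most abundant transcript of the neighbourhood, had levels of 21.98 FPKM in SSCs against 17.6 in FGSCs, a far smaller difference. The neighbourhoods were described after the values were known, and no test was made of the difference between the sides.

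No transcript of the table named any of the 3 genes of the teashirt family (Tshz1, Tshz2 and Tshz3) or any of 13 coding genes around the locus, among them Sall4, Zfp217 and Bmp7. The table holds lncRNAs alone, so that germ cell identity could not be checked here from markers. The study itself checked it in the isolated cells, by RT-PCR and by immunofluorescence for Mvh, Oct4 and Dazl. Of 27 marker genes of germ cells and other gonadal cells, 3 had an antisense transcript in the table and none of the 8 germ cell markers did. All 3 were higher in FGSCs, in a table in which only 36.0% of the transcripts were higher in SSCs. At Hsd3b1, a steroid synthesis gene listed here as a Leydig cell marker, the values were 2.21 FPKM in FGSCs and 0.0136 in SSCs. At Actg2, a smooth muscle actin, they were 1.13 and 0.240. At Dhh, a Sertoli cell signal, they were 0.449 and 0.0463, a log2 difference of -0.80 that was not past the fold. These are antisense transcripts and not the marker mRNAs, so no cell type is read from them. The part of other cell types in the values over Tshz2 was not tested.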

How the data were processed

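RNA depleted of ribosomal RNA was sequenced by a strand-specific protocol from 3 SSC and 3 FGSC libraries. Per the labels and methods, reads were mapped to mm10 with TopHat2, assembled with Cufflinks and Scripture, compared with known transcripts in Cuffcompare and filtered for coding potential. The deposited FPKM values, 1 per transcript and cell type, were computed by the authors with Cuffdiff 2.1.1 over the libraries of each cell type. Their fold changes, test scores, p-values and q-values in the same table were not used. Here, log2(FPKM + 0.5) in SSCs minus FGSCs was computed for transcripts with at least 0.5 FPKM in either cell type, with no rescaling, and a difference of 1 was the fold used. No test was made, since the table gives no values per library. The members and lists were chosen with earlier results of these data known. Named were the 10 members highest in SSCs, the 3 highest in FGSCs, the 5 highest in SSCs among those at 0 in FGSCs, those the paper names, the neighbours next to the window and the 3 loci with at least 10 transcripts nearest in ratio. The rule also asked for every member with a gene name, which all 44 have, and it was not followed there. The lowest member in SSCs, the other loci of class x, the other neighbours and the marker transcripts were named after their values were seen. Starts were raised by 1 to be 1-based. Annotation was GENCODE M21, and sequences were RefSeq's (GRCm38.p6). The calculations were tested on simulated data. The software was Python 3.11.15, NumPy 2.4.6, pandas 2.3.3, pysam 0.24.0 and matplotlib 3.10.9.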

Additional observations from a re-analysis of the deposited data

How the results depend on the processing

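No value changed direction under any alternative tried. The locus was chosen for a large difference, so this says little, and the alternatives show only how far the values move. With pseudocounts of 0.1 and 1 in place of 0.5, the median difference of the 44 was 3.72 and 1.30 and the log2 ratio of sums 5.67 and 4.97. With at least 1 FPKM required these were 1.96 and 5.29 over 43 transcripts, with the medians of both cell types made equal 2.23 and 5.67, and after quantile normalization 1.96 and 5.91. The median over the 12019 transcripts with at least 0.5 FPKM moved from -0.42 to -0.24 with equal medians. Without TCONS_00083550 the log2 ratio was 5.30 and the top 5 held 16.5%. The number past the fold was 43 or 44 except at a difference of 2, where it was 16. The alternatives limited to intergenic transcripts gave no value, since none of the 44 is of that class. No paired analysis was possible because the table has 1 value per cell type, and for the same reason no library could be left out. Depth limits what a value listed at 0 in FGSCs can show.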
